A study of Mus musculus with 21 samples.

Results

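Peaks in the Foxa3 list of hepatocyte-like (iHep) cells were often called side by side. The dense runs described here are the places where this was most marked. They were chosen by position in the deposited iHep Foxa3 peak list alone. Peaks with a gap of 2 kb or less to the peak before were joined, and a dense run is a joined group of 5 or more peaks. The list of 12661 peaks gave 7368 joined groups, single peaks included, and 226 of these groups, with 1535 peaks or 12.1% of the list, were dense runs. The other groups were 254 of 4 peaks, 630 of 3, 1962 of 2 and 4296 single peaks. Because the run is defined by the iHep Foxa3 list, the number, spacing and score of its peaks are given as a description. The rule used no other peak list, but it was set with earlier results of these data known.

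The cells were mouse embryonic fibroblasts of the C57BL/6 strain, prepared from embryos of 13.5 days post coitum. The iHep cells of the Foxa3 line had been given retroviruses for Foxa3 and Hnf4a, and the same pair of factors had been given to the fibroblasts taken 48 hours after infection. The lines set beside them received Hnf4a with Foxa2 or Hnf4a with Foxa1, so all 3 lines carried introduced Hnf4a at both stages. Each line was mapped with chromatin immunoprecipitation and sequencing (ChIP-seq) at both stages, with an antibody to its Foxa protein and one to Hnf4a, and each group is 1 library. The titles of the iHep libraries of the Foxa3 line carry the number 3 and the code R170. That of its 48-hour Foxa3 library carries the number 1 and another code. Between these libraries the stage cannot be told apart from that number and code. A further sample, 48 hours by its title, carried a mutant of Foxa3 named del2, fused to a Ty1 tag. The sources used here state neither the promoter of the retroviruses nor whether an iHep line comes from 1 clone. With 1 library per group there is no replicate spread and no test between samples. The 95% Wilson intervals below cover counting error only, and since neighbouring peaks of a run are not independent the true uncertainty is larger.

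Foxa proteins are forkhead transcription factors of the endoderm and liver. They can bind DNA that is wrapped on nucleosomes and are therefore known as pioneer factors. Hnf4a is a nuclear receptor that binds DNA as a homodimer and controls many genes of the hepatocyte. Both were used here to turn fibroblasts into hepatocyte-like cells. A peak caller reports an interval wherever the read density passes its threshold, so a stretch with several close intervals is one in which the signal passed the threshold repeatedly. The iHep Foxa3 peaks were narrow, with a median width of 248 bp, against 412 to 538 bp in the other lists of intact Foxa proteins. Those lists formed 0 to 12 runs of 5 or more peaks by the same rule. The part of peak calling in the number of runs was not tested. The lists give a score for each peak, which is the authors' own value and whose computation the sources used here do not state. It is used only to describe and rank peaks within 1 list.

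Most dense runs were short. Of the 226 runs 90 had 5 peaks and 60 had 6, while 23 had 10 or more. The median span, from the first base of the first peak to the last base of the last, was 4768 bp, with quartiles of 3514 and 6553 bp. The shortest run covered 1667 bp of chromosome 7 with 5 peaks, and the longest covered 38147 bp of chromosome 19. In 20 runs the span was 10 kb or more. Peaks took up a median of 62.4% of the span, with quartiles of 48.4% and 72.7%, so gaps made up the smaller part of most runs. The 90 runs of 5 peaks had a median span of 3439 bp and the 254 groups of 4 peaks, just outside the rule, had one of 2314 bp. The median of the highest score in the group was 28.0 for the 90 runs and 26.5 for the 254 groups of 4.

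The spacing within the runs was far tighter than the 2 kb allowed by the rule. The 1309 gaps had a median of 219 bp, with quartiles of 115 and 502 bp, and ranged between 52 and 1989 bp. Gaps under 100 bp made up 20.7% of them and gaps of 1 kb or more 9.40%. In 141 of the 226 runs no gap reached 1 kb, and in 62 no gap reached 500 bp. The median distance between the centres of neighbouring peaks was 755 bp. Smaller groups were spaced alike, with a median gap of 182 bp in groups of 4, 186 bp in groups of 3 and 195 bp in groups of 2. With gaps of at most 1 kb 181 runs of 5 or more peaks were found, and when peaks within 500 bp were first merged only 19 remained.

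**Figure D1:**
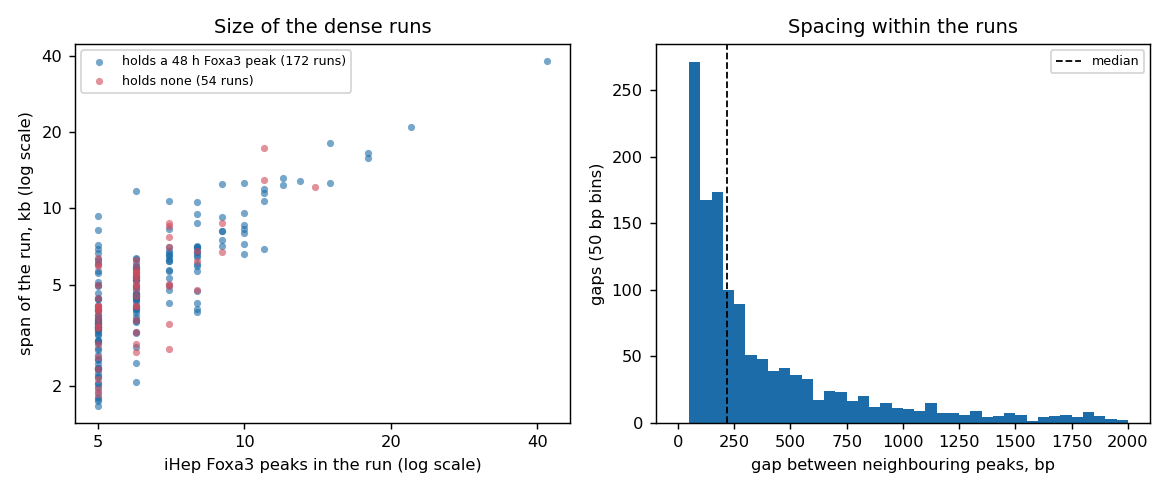
Left: each point is 1 of the 226 dense runs, placed by its number of iHep Foxa3 peaks and its span in kb, both on log scales; blue points hold a 48-hour Foxa3 peak (172 runs) and red points hold none (54 runs). Right: the 1309 gaps between neighbouring peaks of the runs in bins of 50 bp, with the median of 219 bp as a dashed line; most gaps are far below 2 kb.

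Single runs differed greatly in size. The run with most peaks lay at chr19:5812430-5850576 and held 42 peaks over 38.1 kb. The next had 22 peaks at chr4:11082215-11103162. A run of 18 peaks at chr6:52193492-52210124 followed a run of 15 peaks at chr6:52172259-52190469, with 3022 bp between them, so the 2 together held 33 peaks. Another run of 18 peaks lay at chr17:35826496-35842316. By span, a run of 11 peaks at chr18:43880981-43898269 was also among the 5 longest. The score within these runs was uneven and mostly low. In the chromosome 19 run 1 peak, 6941 bp wide, scored 90.0, while 36 of the 42 peaks scored under 20 and the median was 11.5. In the chromosome 4 run the highest score was 35.9 against a median of 11.8, and in the 18-peak run of chromosome 6 it was 18.2 against 11.1.

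Dense runs were found on all 19 autosomes and on chromosome X. Chromosome 11 held 22 of them, chromosome 17 held 21, chromosome 7 held 19 and chromosome 6 held 17. Chromosome 11 also held most peaks of the list, 8.97%, beside 9.73% of the runs. The share of a chromosome's own iHep Foxa3 peaks that lay in runs was 19.6% on chromosome 17, 19.0% on chromosome 6 and 18.3% on chromosome 19, and it was 6.12% on chromosome 2 and 6.46% on chromosome 14. The chromosome 19 value contains the 42 peaks of 1 run. Chromosome X held 5 runs, with 32 of its 183 peaks. Runs were mostly far apart, with a median distance of 4279240 bp between neighbours on a chromosome. Of the 206 neighbouring pairs 15 lay within 20 kb, and 6 of these within 5 kb.

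Some runs stood close together. On chromosome 13 a run of 8 peaks that ended at 23669535 was followed by another of 8 peaks at 23671693, and a run of 5 peaks stood 6892 bp before the first of these. On chromosome 10 a run of 7 peaks and one of 13 were 2417 bp apart, and on chromosome X a run of 10 peaks and one of 6 were 2317 bp apart. Such pairs would count as 1 run with a slightly wider gap. With gaps of up to 3 kb the number of runs was 255.

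The median score of the highest peak of a run was 29.7, with quartiles of 20.4 and 41.1 over the 226 runs. The peaks next to the highest had a median score of 11.9, those 2 places away 11 and those 5 or more places away 10.7. The step down from the highest peak follows in part from picking it. The highest peak was wide, with a median of 687 bp against 304 bp for its neighbours, and in 134 runs it was also the widest of its run. In 106 runs the highest peak and the next highest stood side by side.

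The highest peak was the first peak along the chromosome in 38 runs and the last in 27. Together these are 28.8% of the runs, beside a share of first and last peaks of 32.6% as a mean over runs. In the 90 runs of 5 peaks the ends held it in 26 runs (28.9%), beside 40% of their peaks. The median scores at places 1 to 5 along the chromosome in these runs were 10.7, 13.6, 11.9, 13.7 and 11.2, and the highest peak stood at these places, in the same order, in 11, 26, 13, 25 and 15 runs. Places 2 and 4 held it most often. The strand of any transcript at the runs was not used here.

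**Figure D2:**
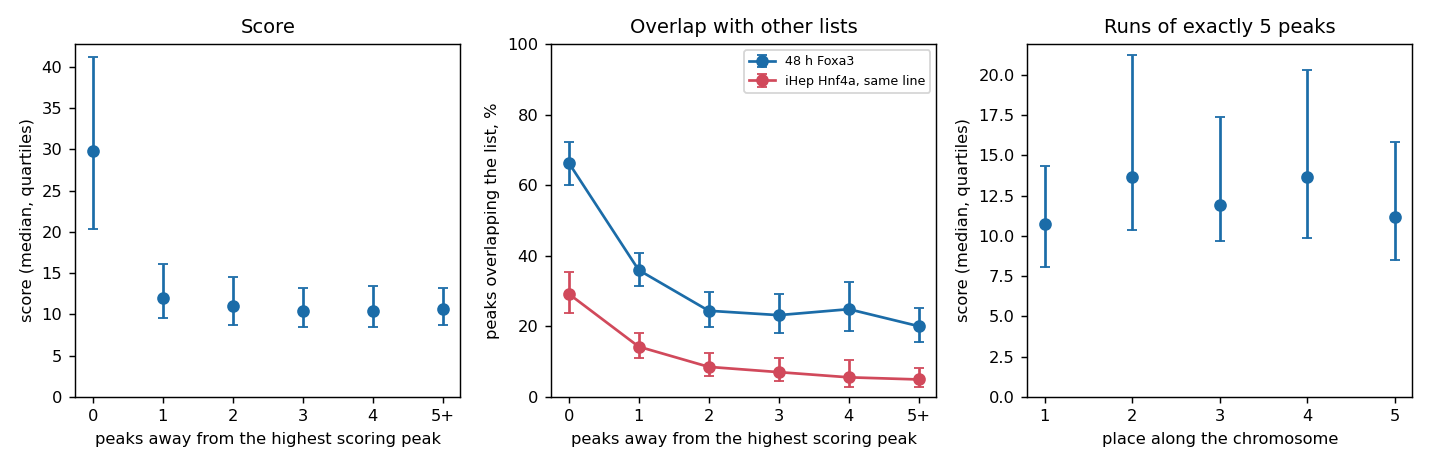
Left: median score, with quartiles, of run peaks by how many peaks away they stand from the highest scoring peak of their run, from 29.7 at the highest peak to 10.7 at 5 or more places. Middle: the share of the same peaks that overlap a 48-hour Foxa3 peak (blue) or an iHep Hnf4a peak of the Foxa3 line (red), with 95% Wilson intervals. Right: median score and quartiles by place along the chromosome in the 90 runs of 5 peaks.

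Peaks of runs scored lower than single peaks. The median score was 11.9 for the 1535 peaks of runs and 15.9 for the 4296 single peaks, and 39.3% of run peaks were in the lowest score quartile of the list. The highest score quartile, which begins at 20.9, held 17.0% of run peaks. It held the highest peak of 167 of the 226 runs, a count that picks the best of 5 or more peaks in each. Of the 100 highest scoring peaks of the list 35 lay in runs. Peaks of runs were wider, with a median of 305 bp against 228 bp for single peaks. The highest score of any run was 94.1, in a run of 6 peaks at chr5:125862540-125874290. It was followed by the chromosome 19 run, by a run of 5 peaks at chr9:78323927-78330588 with 88.8, by one of 6 peaks at chr11:101502491-101508444 with 82.3, and by one of 7 peaks at chr3:96042304-96053041 with 78.4.

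The next comparison asks how many of the runs already held Foxa3 peaks at 48 hours. A 48-hour Foxa3 peak overlapped, by at least 1 bp, some peak of 172 of the 226 runs (76.1%, interval 70.1% to 81.2%), beside 52.3% of all joined groups of the iHep list. A run offers many peaks to overlap, so this count alone does not set the runs apart, and groups of 3 gave 77.3% (73.9% to 80.4%). Counted by peak, 500 of the 1535 run peaks (32.6%, 30.3% to 35.0%) overlapped a 48-hour Foxa3 peak, beside 43.8% of all peaks of the list. The share was 41.0% for single peaks, 50.1% in groups of 2, 49.3% in groups of 3, 38.3% in groups of 4 and 32.6% in runs. Run peaks were thus at 48-hour Foxa3 less often than single peaks, with a difference of −8.42 percentage points (interval −11.2 to −5.62).

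The direction of that difference depended on the score. In the highest score quartile of the iHep list 77.0% of the 261 run peaks (71.5% to 81.7%) overlapped a 48-hour Foxa3 peak. Among the 1120 single peaks of that quartile 64.3% (61.4% to 67.0%) did, so the share was 12.7 points higher in runs. This quartile spans scores of 20.9 to 96.1, and run and single peaks were not matched for score within it. Runs held 35 of the 100 highest scoring peaks and 12.1% of the list. In the lowest quartile the shares were 15.1% of 603 run peaks (12.5% to 18.2%) and 20.2% of 761 single peaks (17.5% to 23.2%). Sorted by width, run peaks had the lower share in all 4 quartiles, with 50.5% in runs and 67.5% among single peaks in the widest. Counting only pairs of peaks whose centres were at most 200 bp apart, the overall difference was −22.3 points. If only the upper 50% of 48-hour Foxa3 peaks by score were used, run peaks had the higher share, with 24.9% against 20.8% of single peaks. Only 1 library of each stage was analysed here, so how far these shares would vary between libraries is unknown.

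**Figure D3:**
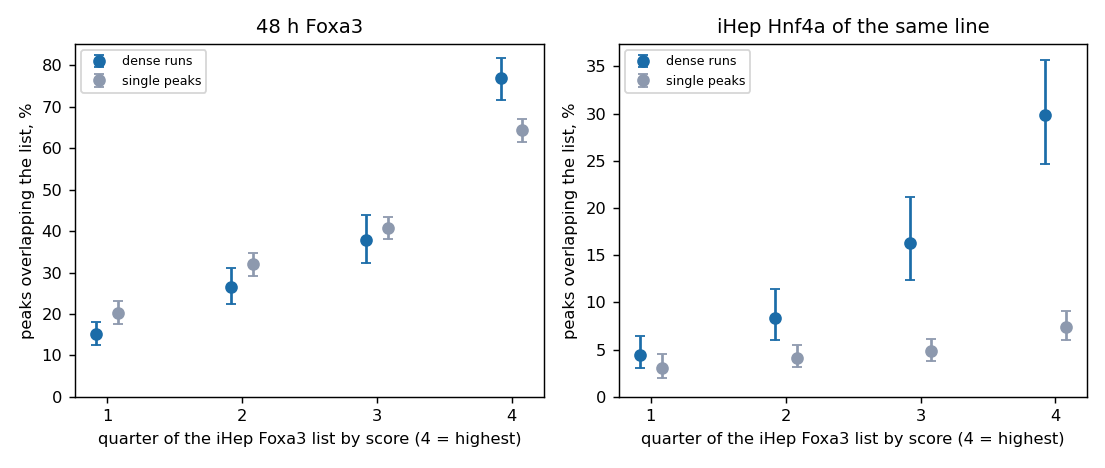
Share of iHep Foxa3 peaks, with 95% Wilson intervals, that overlap a 48-hour Foxa3 peak (left) or an iHep Hnf4a peak of the same line (right), by score quartile of the iHep Foxa3 list; blue is peaks in dense runs and grey is single peaks. In the highest quartile the runs lie above the single peaks in both panels, at 77.0% against 64.3% and 29.9% against 7.41%. Run and single peaks were not matched for score within a quartile.

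Within a run, 48-hour Foxa3 was found most often at the highest peak. The highest peak overlapped a 48-hour Foxa3 peak in 150 of the 226 runs (66.4%, 60.0% to 72.2%). Among all other run peaks, which were lower in score and mostly narrower, the share was 26.7% (24.4% to 29.2%). Single peaks of the highest score quartile, which held the highest peak of 167 runs, gave 64.3% (61.4% to 67.0%). The part of score and width in the contrast within runs was not tested. By distance, the share was 35.9% for the peaks next to the highest, 24.4% for those 2 places away and 20% (15.6% to 25.2%) for those 5 or more places away. Of the 172 runs with any 48-hour Foxa3 peak, 150 had it at their highest peak (87.2%, 81.4% to 91.4%). First and last peaks of the runs overlapped 48-hour Foxa3 in 30.3% of cases and inner peaks in 33.5%, with overlapping intervals.

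The 48-hour list had at most a few peaks at nearly all runs and seldom a run of its own there. The 226 runs met 318 peaks of the 48-hour Foxa3 list, which is 5.59% of that list. Of the runs 54 met none of them, 79 met exactly 1, 93 met 2 or more and 2 met 5 or more. These 318 peaks had a median width of 811 bp. It was 630 bp for the 2132 48-hour peaks at groups of 2 to 4 and 500 bp for the 1773 at single iHep peaks. Over the whole 48-hour Foxa3 list it was 538 bp. The median scores in the 48-hour list were 20 at runs, 16.8 at groups of 2 to 4 and 14.7 at single peaks. Of the 318, 150 (47.2%) covered 2 or more iHep peaks, beside 51.1% of the 2132 48-hour peaks at groups of 2 to 4. The 48-hour list joined by the same rule had 12 runs, of which 3 overlapped a dense run of iHep cells. These lay at the chromosome 19 run, at a run of 8 peaks at chr10:126721897-126728879 and at a run of 5 peaks at chr2:50999076-51004627, and they are named here after their values were seen.

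Few runs had 48-hour Foxa3 along their whole length. The median run with a 48-hour peak had it at 40% of its iHep peaks, with quartiles of 25% and 60%. All peaks of the run were at 48-hour Foxa3 in 5 of the 226 runs, which are also named after their values were seen. A single peak meets this by its own overlap, as 41.0% did, and a run needs it at 5 or more peaks. The count therefore does not set the runs apart from smaller groups. The 5 runs lay at chr9:78323927-78330588, chr12:56588793-56594261, chr13:21900715-21904261, chr2:50999076-51004627 and chr5:32435644-32441333. The 54 runs without any 48-hour Foxa3 peak had a median of 6 peaks and a median span of 4799 bp, close to the 6 peaks and 4743 bp of the 172 others. Their highest peaks were lower, with a median score of 18.1 against 34.6.

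The chromosome 19 run showed the stages within 1 locus. It held 12 peaks of the 48-hour Foxa3 list, the most of any run, and 24 of its 42 iHep peaks overlapped one. The first 12 iHep peaks, over 8.58 kb and with scores of 6.98 to 17.9, overlapped none. Of the next 24 peaks 21 did, and so did the wide peak with the score of 90.0. The other runs with most 48-hour Foxa3 peaks were one of 7 peaks at chr16:23107351-23115627, with 5 of them, and runs at chr11:70460234-70469835, chr13:23847710-23855880 and chr9:40607879-40615013, with 4 each. In the 22-peak run of chromosome 4 only 1 peak, the highest, overlapped a 48-hour Foxa3 peak.

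**Figure D4:**
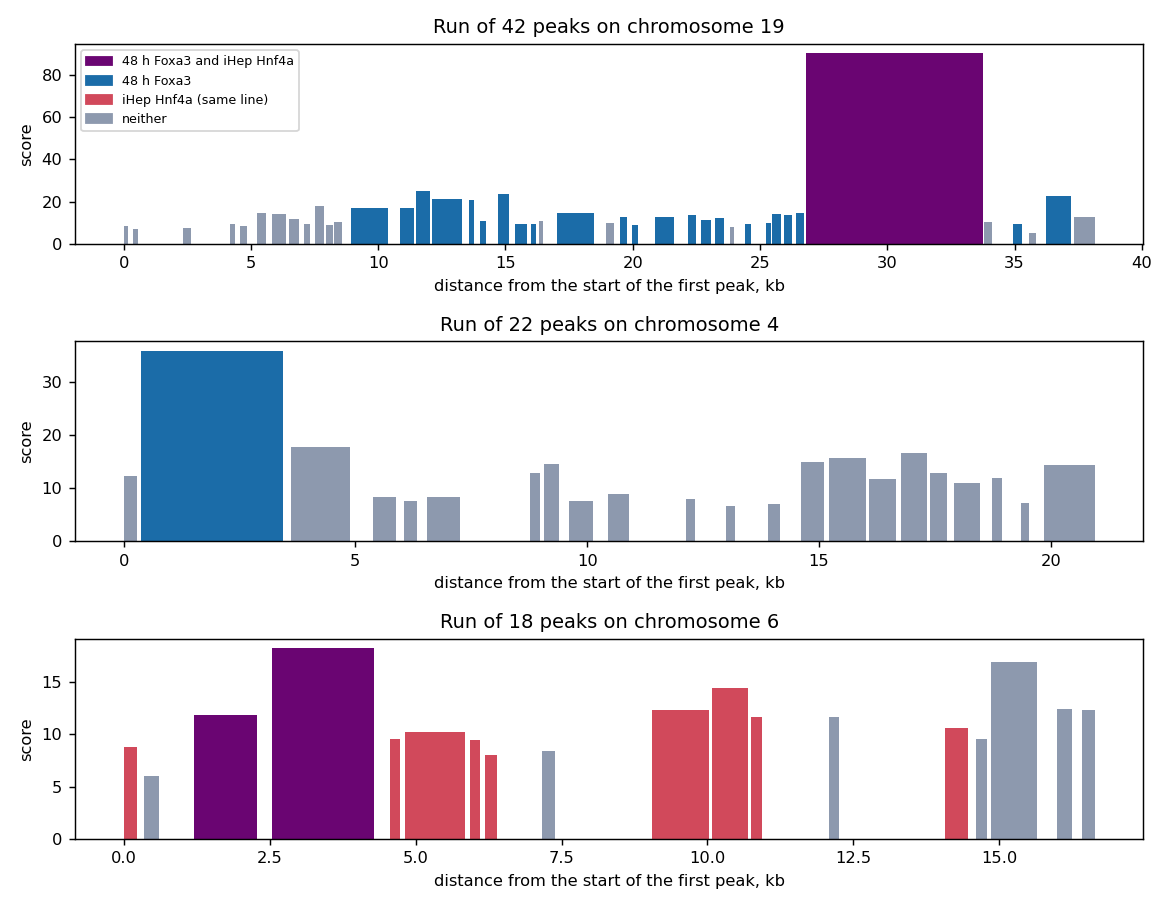
The 3 runs with most peaks, on chromosomes 19, 4 and 6. Each bar is an iHep Foxa3 peak, as wide as the peak and as high as its score, against the distance in kb from the start of the first peak; the colour says whether it overlaps a 48-hour Foxa3 peak (24 of 42 peaks, 1 of 22 and 2 of 18), an iHep Hnf4a peak of the Foxa3 line (1, 0 and 11 peaks), both or neither.

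Hnf4a of the same iHep line was found at the runs more often than at other Foxa3 peaks. An iHep Hnf4a peak of the Foxa3 line overlapped 101 of the 226 runs (44.7%, 38.4% to 51.2%), beside 9.73% of all joined groups. By peak the share was 5.0% for single peaks, 6.27% in groups of 2, 7.88% in groups of 3, 8.37% in groups of 4 and 11.9% (10.3% to 13.6%) in runs, beside 6.93% of all peaks. The difference between runs and single peaks was 6.85 percentage points (5.18 to 8.67). Counting only pairs with centres at most 200 bp apart, it was 2.67 points. It was widest among strong peaks. In the highest score quartile 29.9% of run peaks (24.7% to 35.7%) and 7.41% of single peaks (6.02% to 9.09%) overlapped Hnf4a, and in the lowest quartile 4.48% and 3.02%, with overlapping intervals. Sorted by width, the widest quartile of peaks, 387 to 10265 bp, gave 23.9% in runs and 10.1% among single peaks. The next to widest gave 5.90% and 4.75%, a difference of 1.15 points (−1.30 to 4.18). The narrowest gave 5.99% and 3.14%, a difference of 2.86 points (0.336 to 6.47). In the next to narrowest the shares were 2.56% and 3.47%, which reverses the order within overlapping intervals. Run and single peaks were not matched for score or width within the quartiles. The Foxa3 and Hnf4a libraries of this line carry the same code, R170, in their titles. Those of the iHep Foxa1 line also share a code, R225, and those of the iHep Foxa2 line do not. The part of this in the result was not tested.

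By peak, the iHep Hnf4a lists of the other lines had similar shares in runs and at single peaks. The list of the Foxa2 line, which with 2485 peaks is close in length to the 2506 of the Foxa3 line, overlapped 1.89% of run peaks (1.32% to 2.70%) and 1.77% of single peaks (1.42% to 2.21%). The list of the Foxa1 line, with 1580 peaks, overlapped 1.5% and 1.16%, also with overlapping intervals. Counted by run, these lists were held by 22 runs (9.73%) and 18 runs (7.96%), beside 2.69% and 1.95% of all joined groups. The Hnf4a library of the Foxa3 line itself formed 21 runs of 5 or more peaks by the same rule, of which 10 overlapped a Foxa3 run. The Foxa2 and Foxa1 lines had 7 and 1 such Hnf4a runs, and none of these overlapped a Foxa3 run. The median width of an iHep Hnf4a peak was 205 bp in the Foxa3 line, 361 bp in the Foxa2 line and 308.5 bp in the Foxa1 line.

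**Figure D5:**
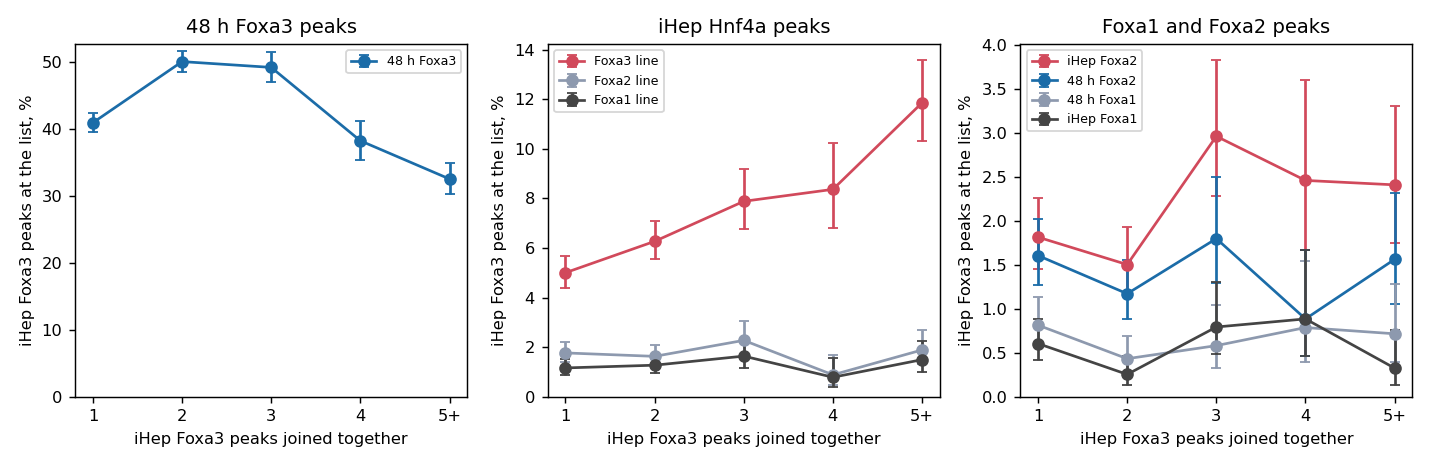
Share of iHep Foxa3 peaks that overlap other lists, by the number of peaks joined together (single peaks to runs of 5 or more), with 95% Wilson intervals. Left: 48-hour Foxa3, 41.0% for single peaks and 32.6% in runs. Middle: iHep Hnf4a of the Foxa3 line, 5.0% and 11.9%, beside the other lines. Right: the 4 Foxa1 and Foxa2 lists, each below 3%.

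Within a run iHep Hnf4a was also found most often at the highest peak. It overlapped the highest peak in 66 runs (29.2%, 23.7% to 35.4%), the peaks next to it in 14.2% of cases and those 5 or more places away in 4.91% (2.89% to 8.21%). Run peaks at 48-hour Foxa3 were at Hnf4a in 16.8% of cases (13.8% to 20.3%) and the other run peaks in 9.47% (7.83% to 11.4%). Both lists were met more often by wide peaks. Run peaks in the widest quartile of the list were at 48-hour Foxa3 in 50.5% of cases and at Hnf4a in 23.9%. In the narrowest quartile these shares were 20.6% and 5.99%. The part of score and width in these contrasts within runs was not tested. Across runs, 81 held both, 91 only 48-hour Foxa3, 20 only Hnf4a and 34 neither. The same split over all joined groups is not given here, so these counts do not set the runs apart. Early Foxa3 was held by 80.2% of the runs with Hnf4a (71.4% to 86.8%) and by 72.8% of those without (64.4% to 79.8%), with overlapping intervals. Runs with Hnf4a were longer, with a median span of 5415 bp against 4078 bp, and longer runs offer more sequence to overlap.

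A few runs held much of this Hnf4a signal. The 15-peak run of chromosome 6 met 17 iHep Hnf4a peaks, all of the Foxa3 line, at 12 of its peaks, and the 18-peak run beside it met 10 at 11 of its peaks. These neighbours held 48-hour Foxa3 at 2 peaks each and no Foxa1 or Foxa2. A run of 10 peaks at chr5:143573026-143585643 met 14 iHep Hnf4a peaks, 12 of them of the Foxa3 line, a run of 9 peaks at chr11:120091157-120099941 met 9 and a run of 11 peaks at chr8:129108450-129120011 met 8. Without these 5 runs 9.58% of run peaks were at Hnf4a of the Foxa3 line, against 5.0% of single peaks. The 42-peak run of chromosome 19 had Hnf4a at its highest peak alone.

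Few peaks of 48-hour Hnf4a met the iHep Foxa3 list, and by peak the runs had close to the share of the whole list. The 48-hour Hnf4a lists are short, with 370 peaks for Foxa3 cells, 453 for Foxa2 cells and 418 for Foxa1 cells. The list of the Foxa3 cells was held by 0 of the 226 runs, beside 0.176% of all joined groups. That of the Foxa2 cells was held by 3 (1.33%), beside 0.312%, and that of the Foxa1 cells by 1 (0.442%), beside 0.271%. Any of the 3 was held by 4 runs (1.77%, 0.69% to 4.46%), beside 0.516% of all groups, and by 0.326% of run peaks beside 0.34% of all peaks. The 4 runs, named after their values were seen, were chr12:55810874-55816070, chr12:55833525-55840048, chr11:101502491-101508444 and chr11:69222365-69226504. The 3 lists share 3 dense blocks of their own, and no iHep Foxa3 peak lay in them or within 10 kb.

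Foxa1 and Foxa2 met few peaks of the whole iHep Foxa3 list, and by peak the share in runs was near that of the list. A peak of any of their 4 lists was held by 42 runs (18.6%, 14.1% to 24.2%), beside 3.92% of all joined groups, but by 3.19% of run peaks (2.42% to 4.20%), beside 2.63% of all peaks and 2.42% of single peaks (2.0% to 2.92%). By list, iHep Foxa2 was held by 31 runs (13.7%) and 48-hour Foxa2 by 22 (9.73%), beside 2.97% and 2.25% of all groups. By peak, iHep Foxa2 overlapped 2.41% of run peaks and 1.82% of single peaks, and 48-hour Foxa2 1.56% and 1.61%. The iHep Foxa1 list was held by 5 runs (2.21%) and the 48-hour Foxa1 list by 9 (3.98%), beside 0.801% and 1.03% of all groups. By peak these 2 lists overlapped 0.326% and 0.717% of run peaks, beside 0.605% and 0.815% of single peaks. The iHep Foxa2 list is long, with 10330 peaks, and the 33 that met runs are 0.319% of it, against 5.59% of the 48-hour Foxa3 list. First and last peaks of the runs overlapped Foxa1 or Foxa2 in 22 of 452 cases (4.87%, 3.24% to 7.26%). Inner peaks did so in 27 of 1083 (2.49%, 1.72% to 3.6%), and this difference was not tested. The Foxa lists differ at once in protein, antibody and line, and these cannot be told apart.

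Only the 9-peak run of chromosome 11 at 120091157 held peaks of all 4 Foxa1 and Foxa2 lists, 6 in number, and it held no 48-hour Foxa3 peak. The 10-peak run of chromosome 5 held 7 other lists, the most of any run, among them 48-hour Foxa3, Foxa1 and Foxa2 at 48 hours, iHep Foxa2 and all 3 iHep Hnf4a lists. The 11-peak run of chromosome 8 and the neighbouring runs of 7 and 6 peaks on chromosome 12 held 6 lists each. Further runs with 3 Foxa1 or Foxa2 peaks lay at chr10:67739332-67742955 and at chr16:30599834-30603364. A 9-peak run at chr15:3220483-3232984 held 5 lists. Of the 42 runs with Foxa1 or Foxa2, 28 also held 48-hour Foxa3, beside 172 of all 226 runs. Hnf4a of the iHep Foxa3 line was held by 23 of the 42 (54.8%, 39.9% to 68.8%). Among the 184 runs without Foxa1 or Foxa2 the share was 42.4% (35.5% to 49.6%), with overlapping intervals.

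At the other end, 26 of the 226 runs overlapped no peak of any other list and 91 overlapped those of a single list. The same counts over all joined groups are not given here, so these do not set the runs apart. Smaller groups offer fewer peaks to overlap, and 48-hour Foxa3 alone was held by 76.1% of runs and 52.3% of all groups. The 26 runs had a median of 6 peaks and a median span of 4659 bp, against 6 peaks and 4768 bp over all runs. Their highest peaks were low, with a median score of 15.9 against 29.7 over all runs. Peaks covered a median of 44.8% of their span, against 62.4% over all runs. The list of the tagged del2 mutant has 1 peak, and it lay in none of the runs.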

How the data were processed

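The series holds 21 ChIP-seq samples. Peak lists of 13 of them were used, and the 8 inputs were not analysed here. The deposited lists give chromosome, start, end, name and a score per peak, and the sources used here do not say what the authors' score measures. Per the submitters' processing notes, the build was mm9 and the tools were MACS2 (2.1.0), BWA (0.6.2) and bedtools (2.16.2), with no role stated. The lists hold no read counts, so library depth is unknown. Positions are mm9, with the first base counted as 1. No mm9 genome or annotation was used here, so no gene or sequence is given for any run.

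Samples were grouped by their titles. The stage label of the del2 sample says iHep and its title 48 hours, and it was grouped by title. Peaks were joined at gaps of up to 2 kb. A run held another list where 1 of its peaks shared 1 bp or more with a peak of that list, and no p-values were computed. Intervals of shares are Wilson intervals and those of differences combine them. The joining and overlap code was tested on simulated data. The runs named are, by rule, the 5 with most peaks, longest span, highest score, most peaks of 48-hour Foxa3, of Foxa1 or Foxa2 and of iHep Hnf4a, and most other lists. The members and rules were chosen with earlier results of these data known. The software was matplotlib 3.10.9, SciPy 1.17.1, pandas 2.3.3 and NumPy 2.4.6 under Python 3.11.15.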

Additional observations from a re-analysis of the deposited data

How the results depend on the processing

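The number of runs, the counts of runs that held 4 kinds of list and both share differences were recomputed with 1 choice changed, and the other values were not. The number of runs was 480 with a minimum of 4 peaks, 136 with 6, 19 after peaks within 500 bp were merged and 13 in the upper 50% of the list by score. Among runs of at least 6 peaks 103 held 48-hour Foxa3 and 67 iHep Hnf4a of the Foxa3 line. With peak centres within 200 bp, 113 runs held 48-hour Foxa3, 27 Foxa1 or Foxa2 and 2 any 48-hour Hnf4a. With the upper 50% of the other list by score, 64 held iHep Hnf4a of the Foxa3 line, 18 Foxa1 or Foxa2 and 1 a 48-hour Hnf4a peak. With every other list cut to 370 peaks the counts were 65 for 48-hour Foxa3, 19 for that Hnf4a and 3 for Foxa1 or Foxa2. With gaps of at most 1 kb 2 runs held 48-hour Hnf4a. The other alternatives kept these counts within 1.5 times, among them autosomes alone, overlap of 50% of the shorter peak, the whole span of the run and removal of the 48-hour Hnf4a blocks.

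The difference in the share at 48-hour Foxa3, runs minus single peaks, was −11.7 points with overlap of 50% of the shorter peak, −22.3 with centres within 200 bp and −13.4 with the centre of the iHep peak inside the 48-hour peak. From the lowest to the highest score quartile it was −5.15, −5.42, −2.92 and 12.7, and in the upper 3 quartiles by width −13.5, −20.0 and −17.0. With the upper 50% of the 48-hour list it was 4.12. The differences for iHep Hnf4a of the Foxa3 line, alternatives chosen after seeing the data, were 2.67 with centres within 200 bp, 2.64 with the centre inside, 1.46, 4.21, 11.5 and 22.5 by score quartile, 2.86, −0.90, 1.15 and 13.8 by width quartile, and 4.57 without the 5 runs with most iHep Hnf4a peaks. Without the 42-peak run the differences were −9.11 and 7.12 points. The cause of these changes was not tested. No paired analysis was possible because each group has 1 library and no test was made. Depth is unknown, so an absent peak does not show that a factor was absent.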
